A study of Homo sapiens with 7 samples.

Results

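Contacts of chromosome 22 with 16 non-acrocentric chromosomes (1 to 12, 16, 17, 18 and 20) were followed across 7 Hi-C libraries. Chromosomes 1 to 22 and X, 23 in all, form these 16 pairs, 6 further pairs with chromosome 22 and 231 pairs without it. The members were chosen by the balanced contacts of these same libraries, in which pairs with chromosome 22 had been seen among the lowest changes under auxin, and are named by chromosome. Their levels and changes are therefore descriptions, and none of them is tested. All 16 pairs had contacts in every library. The other 6 partners are the acrocentric chromosomes 13, 14, 15 and 21, and chromosomes 19 and X.

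The cells were DLD-1, an established human colorectal adenocarcinoma line, in which DNMT1 carries an auxin-inducible degron (DNMT1-AID). In this system auxin leads the tagged protein to degradation. The knockout groups carried the degron and a DNMT3B knockout and were untreated or given auxin for 4 d or 10 d, and the DNMT1-AID groups, with DNMT3B intact, were untreated, given auxin for 4 d or 10 d, or given auxin for 4 d followed by 4 d of washout. Since every group carried the degron, loss of DNMT1 and any other action of auxin cannot be told apart. For 1 library, the untreated knockout, the title says knockout and the genotype label gives DNMT1-AID alone, and the title decided its group. Loss of DNMT3B and any other difference between the knockout and the DNMT1-AID cells cannot be told apart either. Each group held 1 library, so no difference has a replicate check. The tables sum contacts over whole chromosomes or arms, which leaves DNMT1 and DNMT3B themselves unmeasured.

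DNMT1 copies CpG methylation onto the new strand after DNA replication, and DNMT3B can methylate DNA that carried none. Each chromosome occupies a territory in the nucleus, and contacts between chromosomes are made mostly where territories meet. Small gene-rich chromosomes tend to lie toward the nuclear interior and to touch each other more often than large gene-poor ones, which tend to lie toward the periphery. Chromosome 22 is a small acrocentric chromosome: its short arm holds ribosomal RNA genes and satellite repeats, and its measured sequence lies on the long arm, 22q.

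Chromosome 22 was 50.8 Mb long in the authors' bins (hg38) and held 451 protein-coding genes in the annotation of GRCh38.p14. Over that whole length, the unmeasured short arm included, chromosome 22 had 8.87 per Mb, the 5th highest density of 22 chromosomes with a length here. Of its 621 bins of 50 kb that carried an interaction cluster in the authors' clustering of the untreated DNMT1-AID library, 44.3% lay in A1 and 37.7% in A2, the active clusters by name. The V+VI cluster held 14.2% and the inactive B2/B3 cluster 3.86%. The A1 and the combined A1 and A2 shares were each the highest of the 21 chromosomes with clustered bins used here. The longest A1 run of the chromosome was chr22:39850001-42100000, 2.25 Mb with 44 protein-coding genes from GRAP2 to NDUFA6. The longest A2 run, chr22:27050001-29250000, held 11 genes from MN1 to EMID1, the longest B2/B3 run, chr22:33950001-35000000, held 0, and the longest V+VI run, chr22:47900001-49450000, held 1, TAFA5.

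The promoters of chromosome 22 were rich in CpG, the dinucleotide that DNMT1 and DNMT3B methylate. Over 308 RefSeq promoters of the chromosome, from 250 bases before to 50 bases after the gene's start, the median was 28 CpG and the mean GC content 66.4%, against 22 CpG and 61.4% over 15812 promoters in the same table, on X and 21 autosomes, 22 itself included. The median CpG count was the highest of the 21 autosomes compared. The first and last genes of the longest A1 run show how far single promoters lie from that median. GRAP2, an adaptor protein of T cell signalling, has 6 CpG at chr22:39926354-39926653 (plus strand, GC 40.3%), and NDUFA6, a subunit of mitochondrial complex I, has 26 CpG at chr22:42090723-42091022 (minus strand, GC 63.7%). Both are given 5′ to 3′ from RefSeq (GRCh38.p14), with each CpG in capitals.
GRAP2: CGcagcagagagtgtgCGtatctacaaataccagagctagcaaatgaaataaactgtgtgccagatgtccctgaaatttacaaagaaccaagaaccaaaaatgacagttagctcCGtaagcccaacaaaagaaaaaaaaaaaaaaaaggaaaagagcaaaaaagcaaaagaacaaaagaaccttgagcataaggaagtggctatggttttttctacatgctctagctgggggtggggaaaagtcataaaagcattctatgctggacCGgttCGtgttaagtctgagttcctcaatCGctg
NDUFA6: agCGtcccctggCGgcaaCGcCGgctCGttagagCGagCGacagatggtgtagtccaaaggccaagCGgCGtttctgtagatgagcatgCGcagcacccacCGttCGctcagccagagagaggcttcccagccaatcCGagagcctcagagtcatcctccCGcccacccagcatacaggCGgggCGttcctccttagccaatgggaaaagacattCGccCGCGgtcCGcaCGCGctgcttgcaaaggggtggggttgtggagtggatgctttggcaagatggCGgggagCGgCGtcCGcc
Neither promoter has a contact value of its own in these tables, and methylation was not measured here.

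The contact level of a pair was its balanced contact per pair of bins divided by the median of all pairs of the same library, so that 1 is the median pair. Among the members, chromosome 22 met the small gene-rich chromosomes 17, 20 and 16 most and the large chromosomes 2, 3 and 4 least. Of the partners outside the members, chromosome 19 made the highest pair of all in every library and X lay below 2, 3 and 4. 13 of the members were above the median pair in all 7 libraries, and the exceptions were 2, 3 and 4. The median member level was 1.47 (untreated), 1.41 (4 d) and 1.38 (10 d) in knockout cells, and 1.47 (untreated), 1.43 (4 d), 1.39 (10 d) and 1.49 (washout) in DNMT1-AID cells. The members took 2.74%, 2.58% and 2.74% of all contacts between chromosomes in knockout cells untreated, at 4 d and at 10 d, and 2.74%, 2.64%, 2.65% and 2.76% in DNMT1-AID cells untreated, at 4 d, at 10 d and after washout.

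**Figure D1:**
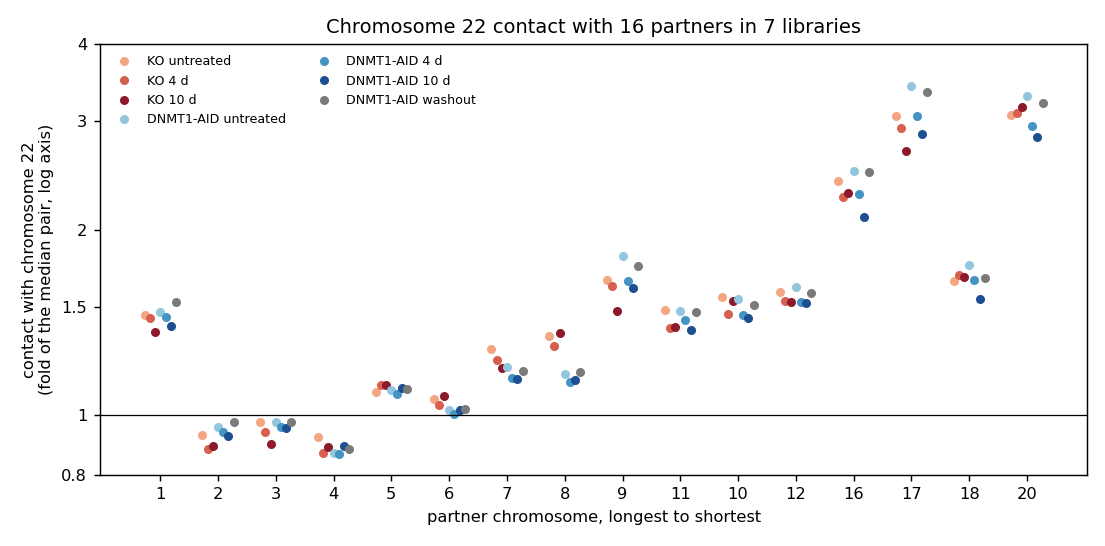
Contact of chromosome 22 with each of 16 partners, as fold of the library's median pair on a log axis, with partners from longest to shortest and 1 point per library. Chromosomes 17, 20 and 16 lie above 2 in every library, chromosomes 2, 3 and 4 below 1, and chromosome 8 is higher in the 3 knockout libraries than in the 4 DNMT1-AID libraries.

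Chromosome 17, at 14.04 protein-coding genes per Mb the most gene-dense member, had 3.06, 2.93 and 2.68 times the median pair in knockout cells untreated, at 4 d and at 10 d. In DNMT1-AID cells it had 3.42, 3.05, 2.85 and 3.35 untreated, at 4 d, at 10 d and after washout. Both auxin libraries lay below the untreated one in each genotype, and the washout library lay close to the untreated one. This pair ranked between 2nd and 5th from the highest of all pairs in every library.

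Chromosome 20 (64.4 Mb) had 3.07, 3.09 and 3.16 times the median pair in knockout cells untreated, at 4 d and at 10 d, and 3.29, 2.94, 2.83 and 3.21 in DNMT1-AID cells untreated, at 4 d, at 10 d and after washout. The auxin libraries were the lowest of the DNMT1-AID line and were not below the untreated library in knockout cells. Chromosome 16 (90.3 Mb) had 2.40, 2.26 and 2.29 in knockout cells and 2.49, 2.28, 2.10 and 2.48 in DNMT1-AID cells in the same orders. Its auxin libraries were lower than the untreated one in both genotypes, most at 10 d in DNMT1-AID cells.

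Chromosome 18 is a small member with few genes (80.4 Mb, 3.36 protein-coding genes per Mb, no A1 bin). It had 1.65, 1.69 and 1.68 times the median pair in knockout cells untreated, at 4 d and at 10 d, and 1.75, 1.65, 1.54 and 1.67 in DNMT1-AID cells untreated, at 4 d, at 10 d and after washout. It thus met chromosome 22 at a level near that of chromosome 9 (138 Mb), which had 1.66, 1.62 and 1.48 in knockout cells and 1.81, 1.65, 1.61 and 1.74 in DNMT1-AID cells in the same orders. At the other end, chromosome 4 (190 Mb) had 0.923, 0.867 and 0.887 in knockout cells and 0.868, 0.866, 0.892 and 0.881 in DNMT1-AID cells. In chromosome 4 the 4 d library was the lowest of each genotype, by little in DNMT1-AID cells, and the untreated library was the highest in knockout cells alone. Over the 7 libraries, chromosomes 10, 11 and 12 lay between 1.37 and 1.61, chromosome 1 between 1.37 and 1.52, chromosome 7 between 1.14 and 1.28, chromosomes 5 and 6 between 1.004 and 1.12, and chromosomes 2 and 3 between 0.881 and 0.974.

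Raw contacts of a member ran from 6953 (chromosome 18, washout) to 134940 (chromosome 1, 4 d of auxin in DNMT1-AID cells). For 17 in DNMT1-AID cells, the share of all contacts between chromosomes was 0.187% (95% exact binomial interval 0.185% to 0.189%) untreated, 0.169% at 4 d, 0.165% at 10 d and 0.188% (0.184% to 0.191%) after washout. Such intervals cover counting error only and not the difference between cultures, whose size is unknown here. Libraries held 24514580 to 45703420 contacts between chromosomes, apart from the washout library with 6329215.

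Across the 16 members, the contact level was higher for partners that were shorter, denser in genes and richer in A1 and A2 bins. Pearson's r of the log2 level with partner length lay between -0.83 and -0.77 in the 7 libraries, with protein-coding genes per Mb between 0.65 and 0.73, and with the share of A1 and A2 bins between 0.78 and 0.86. These are descriptions over 16 points that share the bins of chromosome 22, the library and its depth. The A1 and A2 shares come from an interaction clustering of the untreated DNMT1-AID library, so they are not independent of the contacts.

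After 4 d of auxin in DNMT1-AID cells, all 16 members lay below their untreated level. The median log2 change (4 d minus untreated) was -0.054, against -0.013 over all pairs, of which 66.4% lay below 0. For 15 of the members the drop was larger than the 95% counting error of the change, and chromosome 4, at -0.004, lay within it. A change of at least 0.1 on the log2 scale was set as the size called lower or higher. By it 4 members were called lower (9, 16, 17 and 20) and 0 higher, where 4.74% of all pairs were called lower and 0.395% higher. The members were chosen with this contrast known, so nothing is read from that count.

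After 10 d the median change was -0.081, against -0.012 over all pairs. 14 members lay below 0, 7 of them (9, 10, 11, 16, 17, 18 and 20) were called lower and 0 higher, where 13.4% of all pairs were called lower and 2.77% higher. Chromosomes 10 and 11 were just inside that size, at -0.101 each, and chromosome 12 just outside, at -0.089. Both auxin comparisons use the same untreated library, so they are not independent of each other.

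Among the members, the largest drops of DNMT1-AID cells at 10 d were with the 3 of highest level, 17, 16 and 20. Outside the members, chromosome 21 had the lowest change of all pairs at 10 d, -0.263, and chromosome 19, the partner of highest level, changed by -0.129. Chromosome 17 changed by -0.162 ± 0.016 at 4 d and by -0.260 ± 0.017 at 10 d (log2, ± 95% counting error), 4th and 2nd lowest of all pairs. Chromosome 20 changed by -0.162 and -0.219, and chromosome 16 by -0.126 and -0.246, at 4 d and at 10 d. Chromosome 18, the member with the fewest genes per Mb, changed by -0.081 and -0.181. Over these 4 short chromosomes the median change was -0.144 at 4 d and -0.233 at 10 d, and over the 12 longer ones (1 to 12) it was -0.037 and -0.057. At 4 d the changes of the 4 short chromosomes, -0.162 to -0.081, overlapped those of the 12 longer ones, -0.131 to -0.004. At 10 d, with -0.260 to -0.181 against -0.169 to 0.038, they did not. Low changes of 16, 17 and 20 at 10 d were also seen in the pairs of the members with each other. The median change with the other 15 members was -0.036 for 16, -0.073 for 17, -0.001 for 18 and -0.033 for 20. For the longer chromosomes it ran from -0.043 (chromosome 10) to 0.030 (chromosome 5), so in those pairs the ranges overlapped. Chromosome 4 at 10 d, with 0.038 ± 0.019, was the member that lay above 0 by more than its counting error.

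**Figure D2:**
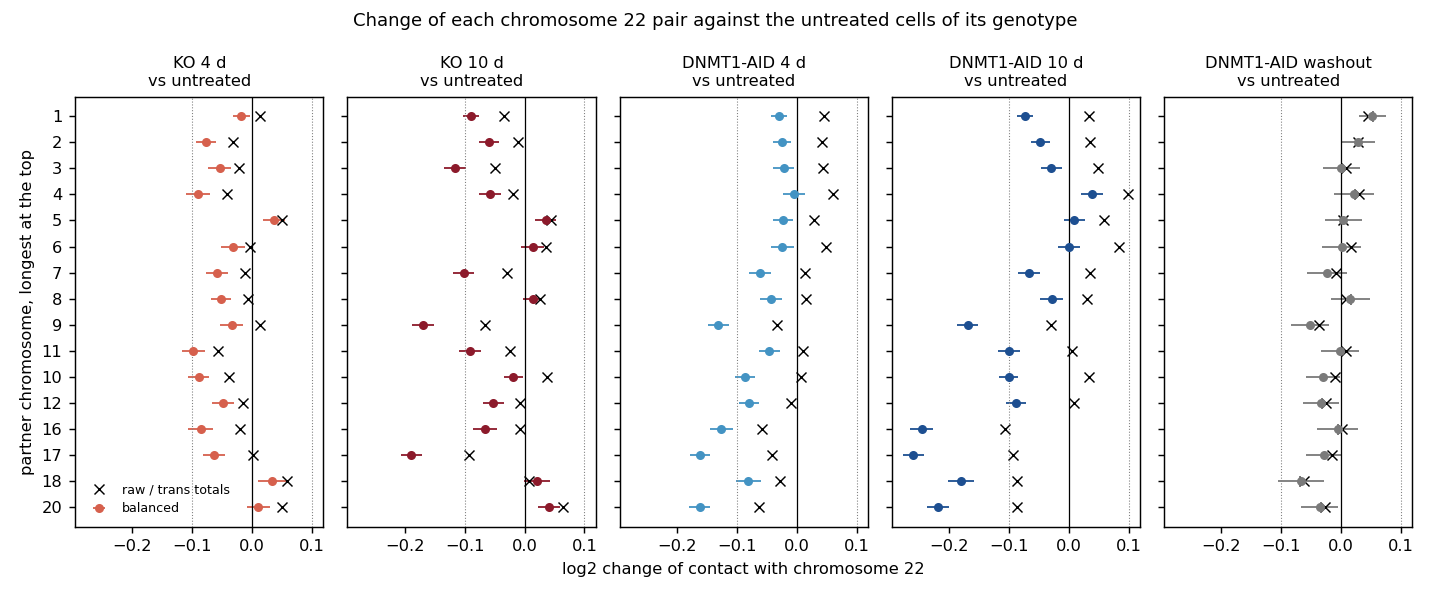
Log2 change of contact with chromosome 22 for each partner against the untreated library of its genotype, with partners from longest at the top to shortest. Filled points are balanced contacts with 95% counting intervals, crosses are raw counts over the product of trans totals, and dotted lines mark a change of 0.1. In DNMT1-AID cells the 4 shortest partners lie farthest to the left at 10 d, while in knockout cells 18 and 20 do not lie below 0 at either time.

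In knockout cells the median change was -0.054 at 4 d (0.004 over all pairs), and -0.058 at 10 d (0.001 over all pairs). 13 members lay below 0 at 4 d and 11 at 10 d. At 4 d, 0 members were called lower or higher, where 0% of all pairs were called lower and 1.19% higher, and the lowest member was chromosome 11 at -0.099 ± 0.019, which was also the lowest of all pairs. At 10 d, 4 members were called lower (3, 7, 9 and 17) and 0 higher, where 3.56% of all pairs were called lower and 3.95% higher. Both knockout comparisons share the untreated knockout library.

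The lowest partners in knockout cells were short and long ones alike. At 10 d chromosome 17 had the lowest change of all pairs, -0.189 ± 0.018, and chromosome 9 the next lowest, -0.169 ± 0.019. Chromosomes 3 and 7, both long, followed at -0.116 and -0.102. Chromosomes 18 and 20 lay at 0.033 and 0.010 at 4 d and at 0.021 and 0.040 at 10 d, and chromosome 5 at 0.036 at both times. The median over 16, 17, 18 and 20 was -0.027 at 4 d and -0.022 at 10 d, and over 1 to 12 it was -0.054 and -0.058.

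Over the untreated library of each genotype, the change followed partner length in DNMT1-AID cells, after washout as well as under auxin. In knockout cells it followed length little. Pearson's r of the change with partner length was -0.14 at 4 d and -0.10 at 10 d in knockout cells (Spearman's rho -0.06 and -0.21), and 0.81 at 4 d and 0.76 at 10 d in DNMT1-AID cells (rho 0.84 and 0.79). The washout library, where 0 members were called lower or higher, had r = 0.78 with length (rho 0.83) over the same untreated library. The relation was thus not particular to libraries taken under auxin, although the washout cells had been given auxin before. The washout r was -0.43 with the share of A1 and A2 bins and -0.02 with protein-coding genes per Mb. Untreated knockout cells over that same DNMT1-AID library, with no auxin in either, had r = 0.38 with length and -0.72 with the share of A1 and A2 bins. Within DNMT1-AID cells and without that library, r with length was 0.59 for 10 d over 4 d and -0.45 for washout over 4 d. For the auxin libraries, r with the share of A1 and A2 bins in the partner was -0.08 and -0.45 in knockout cells, and -0.87 and -0.79 in DNMT1-AID cells. With protein-coding genes per Mb it was -0.25 and -0.49 in knockout cells, and -0.58 and -0.62 in DNMT1-AID cells. The knockout changes were little related to the DNMT1-AID changes of the same partners, with r = -0.09 at 4 d and r = 0.28 at 10 d, from libraries that share no control. Each value describes 16 partners that share the bins of chromosome 22, and the difference between genotypes was not tested. The A1 and A2 shares come from the untreated DNMT1-AID library, the reference of the DNMT1-AID changes.

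**Figure D3:**
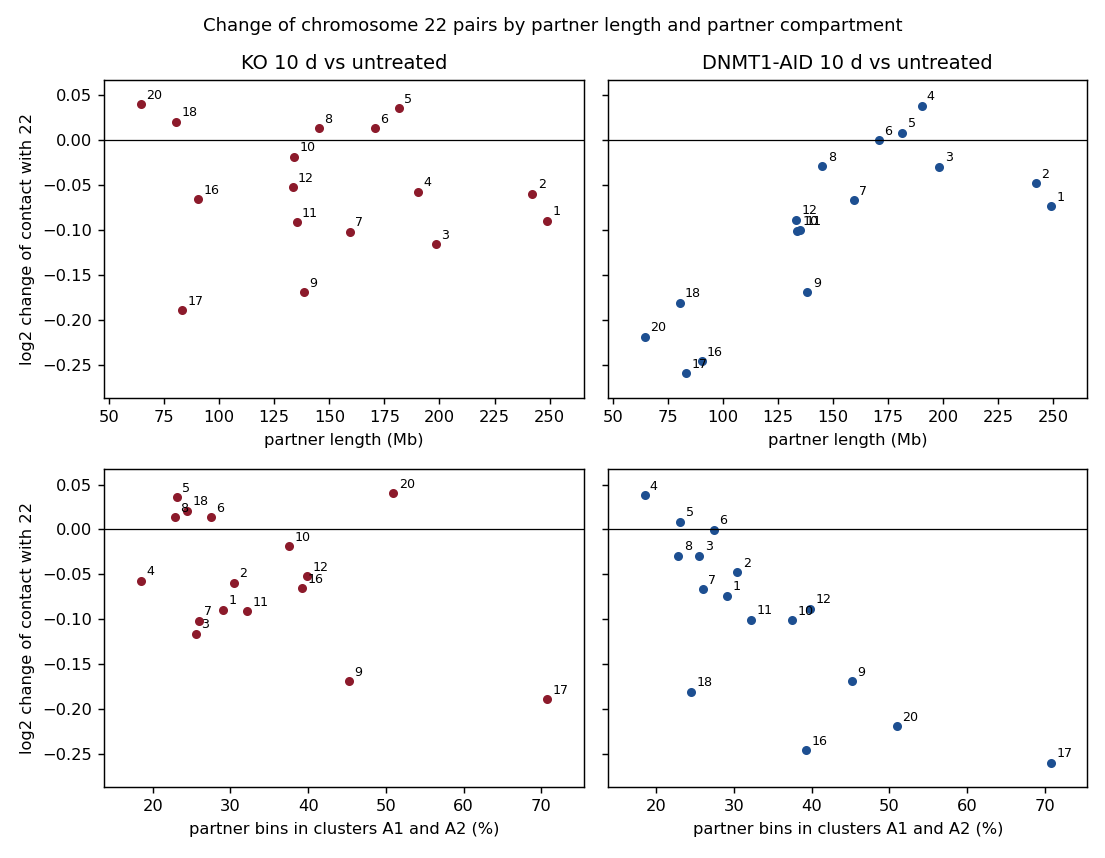
Log2 change of contact with chromosome 22 at 10 d of auxin against partner length in Mb (top) and against the percentage of the partner's clustered bins in A1 and A2 (bottom), with points named by partner. In knockout cells (left) r is -0.10 with length and -0.45 with the A1 and A2 share, and in DNMT1-AID cells (right) 0.76 and -0.79.

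Under auxin, pairs of high contact tended to fall relative to the median pair in DNMT1-AID cells, also where chromosome 22 was not involved. A line of the change on the untreated level, fitted over the 231 pairs without chromosome 22, had a slope of 0.012 at both times in knockout cells, and of -0.044 at 4 d and -0.104 at 10 d in DNMT1-AID cells. Measured from that line, the median distance of the members was -0.066 at 4 d and -0.064 at 10 d in knockout cells, and -0.029 and -0.026 in DNMT1-AID cells. Below the line lay 14 members at 4 d and 11 at 10 d in knockout cells, and 15 and 12 in DNMT1-AID cells. Chromosome 17 lay at -0.214 from the line at 10 d in knockout cells and at -0.065 in DNMT1-AID cells, and chromosome 16 at -0.086 and -0.098.

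An additive fit of the balanced changes over all pairs gave each chromosome a term. It is the log2 change that its 22 pairs have in common, measured from the average chromosome. A term above the average can therefore go with pairs that mostly fell. The members were chosen by the same balanced contacts, so the place of chromosome 22 is a description on that scale. The term of chromosome 22 was the lowest of 23 in all 4 comparisons of auxin with untreated cells: -0.040 at 4 d and -0.049 at 10 d in knockout cells, and -0.066 and -0.091 in DNMT1-AID cells. Chromosome 17 came next in DNMT1-AID cells, at -0.048 and -0.071. Chromosome 14 came next at 10 d in knockout cells, at -0.048, so that the place of 22 there rests on a very small gap. Chromosome 21, the other small acrocentric chromosome, had 0.041 and 0.058 in knockout cells, the highest of 23 at both times, and -0.011 and -0.031 in DNMT1-AID cells. Chromosome 19, the densest in genes, had 0.036 and 0.057 in knockout cells and 0.050 and 0.062 in DNMT1-AID cells. The other 6 partners of chromosome 22 had a median change of 0.006 and -0.021 in knockout cells, and -0.098 and -0.144 in DNMT1-AID cells, at 4 d and at 10 d.

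**Figure D4:**
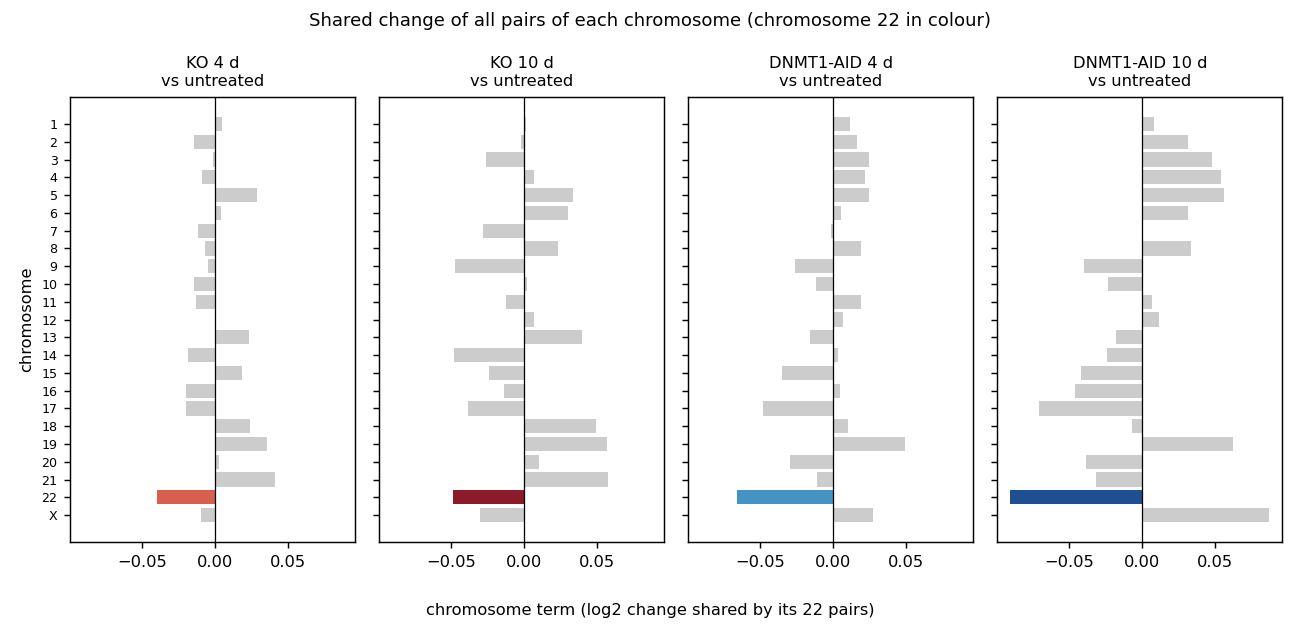
Chromosome term from balanced contacts for 4 comparisons of auxin with untreated cells, with chromosome 22 in colour. The term is the log2 change shared by the 22 pairs of each chromosome, measured from the average chromosome. The bar of chromosome 22 is the lowest of 23 in each panel, at -0.040, -0.049, -0.066 and -0.091 from left to right.

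The direction of these medians depends on how contacts are scaled. When raw counts were divided by the product of both chromosomes' totals of contacts between chromosomes, the median member change was -0.010 at 4 d and -0.009 at 10 d in knockout cells, and 0.012 and 0.031 in DNMT1-AID cells. On that scale a relative fall shared by all pairs of chromosome 22 is taken out. Against length, r was then -0.31 at 4 d and -0.13 at 10 d in knockout cells and 0.88 and 0.79 in DNMT1-AID cells, although single partners changed places. Chromosome 16 changed by -0.107, 17 by -0.094, 18 by -0.087 and 20 by -0.087 at 10 d in DNMT1-AID cells, while chromosome 4 changed by 0.099. With raw counts per bin pair a shared relative fall stays in. The median member change was then -0.093 at 4 d and -0.013 at 10 d in knockout cells, and -0.056 and -0.020 in DNMT1-AID cells.

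After washout the members lay near the untreated DNMT1-AID library. The median change (washout minus untreated) was -0.004, against 0.002 over all pairs, 9 members were below 0, and 9 lay within the counting error, which is widest in this shallow library. Of the members, 0 were called lower or higher, where 0% of all pairs were called lower and 0% higher. Chromosome 18 was the lowest, at -0.067 ± 0.038, and chromosome 1 the highest, at 0.052 ± 0.023.

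Against the library at 4 d of auxin, all 16 members lay above 0 after washout, with a median of 0.049 (0.014 over all pairs, of which 26.1% lay below 0). 11 of them exceeded the counting error. 3 members were called higher (16 at 0.120, 17 at 0.133 and 20 at 0.126) and 0 lower, where 4.35% of all pairs were called higher and 0% lower. These 3 are the members of highest level, and chromosome 18 differed by 0.014 ± 0.036. This comparison shares its 4 d library with the auxin comparison above, so a low value there raises the change here.

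Without auxin, the difference between knockout and DNMT1-AID cells varied from partner to partner around a median of -0.013 (knockout minus DNMT1-AID), against -0.021 over all pairs. 9 members lay below 0. Chromosomes 9 (-0.124) and 17 (-0.160) were called lower and chromosome 8 (0.208) higher, where 14.2% of all pairs were called lower and 9.49% higher. The count of members called lower is thus near the share of all pairs. At 4 d the median was 0.001, with 0 called lower and 2 higher (7 at 0.101 and 8 at 0.198), where 7.51% of all pairs were called lower and 11.1% higher. At 10 d it was 0.017, with 1 called lower (9 at -0.124) and 4 higher (8 at 0.250, 16 at 0.125, 18 at 0.118 and 20 at 0.162), where 12.3% of all pairs were called lower and 15% higher.

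Chromosome 8 was the one member called higher in knockout cells at all 3 times. This was not particular to chromosome 22: the pairs of chromosome 8 with all 15 other member chromosomes were also called higher at each time. Its level was 1.34, 1.30 and 1.356 times the median pair in knockout cells untreated, at 4 d and at 10 d, and 1.16, 1.13 and 1.14 in DNMT1-AID cells at those times (1.18 after washout). Its coverage, relative to the untreated DNMT1-AID library and the median chromosome, was 1.45-fold untreated and 1.46-fold at both times of auxin in the knockout libraries. The part of coverage in the contact level was not tested, and with raw counts over the product of totals the difference was 0.060, 0.037 and 0.057 untreated, at 4 d and at 10 d. Among the other 15 members and chromosome 22 itself, coverage lay between 0.970-fold and 1.10-fold. The upper end was chromosome 22 at 10 d in knockout cells.

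Chromosome 22 had the highest share of contacts with other chromosomes of all 23 chromosomes in every library. Of the contacts that touch it, counted from a separation of 100 kb on, 58.1%, 56.7% and 62.1% were with other chromosomes in knockout cells untreated, at 4 d and at 10 d, and 53.3%, 50.3%, 58.4% and 55.6% in DNMT1-AID cells untreated, at 4 d, at 10 d and after washout. Of the 3 libraries shared by the genotypes, the share was lowest at 4 d and highest at 10 d, by more than counting error: the interval after washout, the widest, ran from 55.5% to 55.8%. The same order held for 22 of 23 chromosomes in knockout cells and 23 of 23 in DNMT1-AID cells, so the order was not particular to chromosome 22. As log2 ratios over untreated cells, chromosome 22 had -0.036 and 0.096 in knockout cells (median chromosome -0.031 and 0.165) and -0.084 and 0.131 in DNMT1-AID cells (median chromosome -0.047 and 0.236) at 4 d and at 10 d. The ratio of chromosome 22 was the lowest of 23 at 10 d in knockout cells and at both times in DNMT1-AID cells. At 4 d in knockout cells it was the 9th lowest. Its untreated share was the highest of 23 in both genotypes, and whether the low ratios relate to that was not tested. At 10 d in DNMT1-AID cells the share of contacts outside chromosome 22 was thus higher than in untreated cells, but rose less than in the median chromosome. The members' level, which is taken over the library's median pair, was lower. The share and the level are scaled differently and are not independent of each other.

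Within 22q, contacts shifted toward short separations at 4 d of auxin in both genotypes. The share of its intra-arm contacts at 10 Mb or more was 6.21%, 5.77% and 6.92% in knockout cells untreated, at 4 d and at 10 d, and 7.57%, 5.51%, 7.16% and 7.61% in DNMT1-AID cells untreated, at 4 d, at 10 d and after washout. The 4 d library was the lowest of each genotype, and the washout library lay closest to the untreated one. Their counts ran from 170548 (washout) to 1454051 (4 d, DNMT1-AID), and the 95% interval was 7.48% to 7.74% after washout and 7.51% to 7.63% in untreated DNMT1-AID cells.

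Against untreated cells, the log2 ratio of that share was -0.107 at 4 d and 0.154 at 10 d in knockout cells, where the median of 41 arms was 0.054 and 0.240. In DNMT1-AID cells it was -0.458 at 4 d, -0.080 at 10 d and 0.007 after washout, where the median arm had -0.217, 0.040 and 0.032. The 22q value was the 3rd lowest of 41 arms at 4 d and the 4th lowest at 10 d in each genotype, and the 8th lowest after washout. Part of this depends on the range of separations. Between 20 and 33 Mb, 22q had -0.055 at 4 d and 0.299 at 10 d in knockout cells, where the median of 38 arms had 0.034 and 0.239. In DNMT1-AID cells it had -0.554 at 4 d, -0.118 at 10 d and 0.048 after washout, where the median arm had -0.258, 0.019 and 0.044. It was thus the lowest arm at both times in DNMT1-AID cells, while at 10 d in knockout cells it lay above the median arm. Between 10 and 20 Mb at 10 d in knockout cells it had 0.110 and the median arm 0.111.

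**Figure D5:**
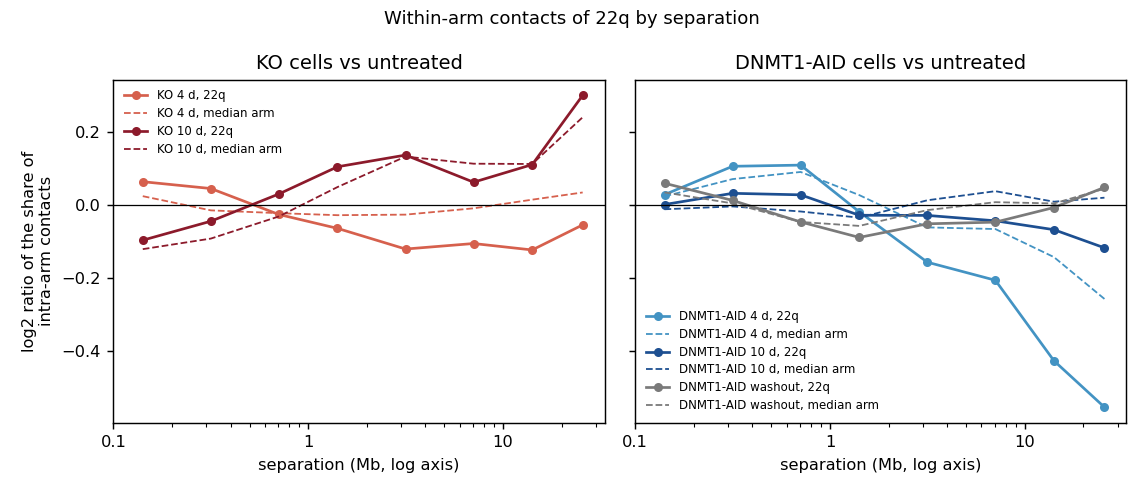
Log2 ratio of the share of intra-arm contacts in each range of separation (Mb, log axis) over the untreated library of the genotype, for 22q (points and full lines) and the median arm (dashed). At 4 d in DNMT1-AID cells 22q falls to -0.554 at the longest separations, below the median arm at -0.258, and at 10 d in knockout cells both lie above 0 there.

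The decay exponent is the slope of log contact on log separation between 0.5 and 5 Mb, and a more negative value is a steeper fall. For 22q it was -1.49, -1.52 and -1.46 in knockout cells untreated, at 4 d and at 10 d, and -1.44, -1.55, -1.47 and -1.44 in DNMT1-AID cells untreated, at 4 d, at 10 d and after washout. The difference from untreated cells was -0.036 and 0.033 in knockout cells at 4 d and at 10 d (median arm 0.004 and 0.074), and -0.111, -0.029 and 0.004 in DNMT1-AID cells at 4 d, at 10 d and after washout (median arm -0.063, 0.016 and 0.019). At 4 d in DNMT1-AID cells the difference of 22q was the lowest of 41 arms, and in knockout cells it was the 2nd lowest at both times. Over 1 to 10 Mb the knockout difference at 10 d was -0.023, with the sign turned. Untreated knockout cells against untreated DNMT1-AID cells had a log2 ratio of the far share of -0.285, where the median arm had -0.284. That likeness held 2 opposite deviations: between 20 and 33 Mb 22q had -0.520 against a median arm of -0.310, and between 10 and 20 Mb -0.211 against -0.291.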

How the data were processed

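Per the submitters' processing notes, Hi-C reads were mapped to hg38 with BWA. Not given in the sources used here are its version, the filters on read pairs and the balancing program. For each pair of chromosomes, and within arms for each separation in 50 kb steps, the authors deposited 3 sums, per the file headers: raw counts of contacts (whole numbers), the signal after matrix balancing, and valid pairs of bins. The smallest separation with values was 100 kb. Matrix balancing aims at equal totals for all bins, which was not checked here. A level, being divided by the median pair, is relative to the other pairs of its library. The cluster names of 50 kb bins are also the authors', and some chromosome stretches carry none in the bins used here.

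Here the balanced signal per bin pair was divided by the library's median over all pairs, and changes are log2 differences between libraries. As a second scale, raw counts were divided by the product of both chromosomes' totals over the library's total. Chromosome terms came from a least-squares additive fit of a mean and 1 term per chromosome, with the terms centred on their mean. The ± values and intervals at 95% come from exact binomial (Clopper-Pearson) limits and cover counting error only. With 1 library per group no test against replicates was possible, and none was run across groups. Genes and promoters came from RefSeq tables of GRCh38.p14, the assembly of hg38, and a gene was placed by its coordinates there. Arms entered with at least 1000 counts, and the exponent used 20 log-spaced bins. Computation used Python 3.11.15, numpy 2.4.6, pandas 2.3.3, scipy 1.17.1 and matplotlib 3.10.9, and was tested on simulated data. The text gives all 16 partners and names the first and last protein-coding gene of the longest run of chromosome 22 bins in each cluster. The members, lists and comparisons were chosen with earlier results of these data known. Contacts between the arms of a chromosome were not examined on their own. They are included in the within-chromosome counts behind the coverage and the share of contacts with other chromosomes.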

Additional observations from a re-analysis of the deposited data

Results flagged for a closer look

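For 2 of the 16 members the knockout library and the DNMT1-AID library moved in opposite directions under auxin at both times. The difference between the genotypes was not tested, and the knockout cells also differed in the coverage of chromosome 8. For chromosome 18 the change was 0.033 at 4 d and 0.021 at 10 d in knockout cells, and -0.081 and -0.181 in DNMT1-AID cells, so that knockout minus DNMT1-AID was 0.114 at 4 d and 0.202 at 10 d. For chromosome 20 the change was 0.010 and 0.040 in knockout cells, and -0.162 and -0.219 in DNMT1-AID cells, so that knockout minus DNMT1-AID was 0.172 at 4 d and 0.260 at 10 d. The knockout value of 20 at 4 d lay within its counting error of 0.019, and that of 18 at 10 d within 0.022. With raw counts over the product of totals the signs were the same: 0.058 and 0.008 for 18 and 0.050 and 0.064 for 20 in knockout cells, against -0.028 and -0.087 for 18 and -0.063 and -0.087 for 20 in DNMT1-AID cells. Outside the members, 2 further partners of chromosome 22 did the same: chromosome 21 changed by 0.051 and 0.071 in knockout cells and by -0.179 and -0.263 in DNMT1-AID cells, and chromosome 19 by 0.072 and 0.062 in knockout cells and by -0.089 and -0.129 in DNMT1-AID cells. The values at both times share the untreated library of their genotype.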

How the results depend on the processing

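Of 81 values under alternatives, 32 moved by no more than the 95% counting error (for exponents the SD over arms, for correlations 0.1) and the rest moved further. The sign turned in 13, of which 3 were among the 32. The causes were not tested. The 12 recomputed correlations with partner length and gene density held within 0.1. They left out chromosome 8 or counted all annotated genes, and all used balanced contacts. With raw counts over the product of totals, not among these 12, some correlations moved further and others did not. At 4 d in DNMT1-AID cells r with the A1 and A2 share was -0.71 instead of -0.87, and at 10 d r with length was 0.79 instead of 0.76. Medians over the members are given below for knockout cells at 4 d and 10 d over untreated, then DNMT1-AID cells at 4 d, 10 d and washout over untreated and washout over 4 d, then knockout over DNMT1-AID cells without auxin, at 4 d and at 10 d. With raw counts over the product of totals, they were -0.0099 and -0.0087, then 0.012 (sign turned), 0.031 (sign turned) and, for washout over 4 d, -0.015 (sign turned), then 0.038 (sign turned), 0.015 and 0.024. Over autosome pairs without chromosome 8, they were -0.060 and -0.045, then -0.058, -0.062 and, for washout over 4 d, 0.042, then 0.023 (sign turned), 0.031 and 0.042. With raw counts per bin pair, they were -0.093 and -0.013, then -0.020 at 10 d, 0.015 (sign turned) for washout over untreated and 0.073 for washout over 4 d, then -0.019, -0.052 (sign turned) and 0.00078. As distance from the line, they were -0.066 and -0.064, then -0.029, -0.026 and, for washout over 4 d, 0.020, then 0.032 (untreated, sign turned) and 0.0025 (10 d). Centred on the median change of all pairs, an alternative chosen after seeing the data, they were -0.040 and -0.069 at 4 d and 10 d in DNMT1-AID cells, 0.035 for washout over 4 d, and 0.0078 (sign turned), 0.0053 and 0.025 for knockout over DNMT1-AID cells.

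For 22q with a boundary of 5 Mb, the log2 ratio of the far share was 0.111 at 10 d in knockout cells, -0.339 at 4 d in DNMT1-AID cells and -0.209 for untreated knockout over untreated DNMT1-AID cells. From balanced sums it was -0.105 at 10 d in DNMT1-AID cells. The exponent difference over 1 to 10 Mb was -0.023 at 10 d in knockout cells (sign turned), -0.081 at 4 d in DNMT1-AID cells and 0.020 after washout. The log2 ratio of the share of contacts outside chromosome 22, from balanced sums, was -0.051 and 0.110 in knockout cells at 4 d and 10 d, 0.143 at 10 d and 0.072 after washout in DNMT1-AID cells, and 0.137 for untreated knockout over untreated DNMT1-AID cells. No paired analysis was possible because the groups compared share fewer than 2 replicate numbers. Depth limits the washout library most: its changes carry counting errors of up to 0.038.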
